A study of Mus musculus with 25 samples.

Results

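The genes described here are 10 members of the Kruppel-like factor family, Klf1, Klf2, Klf3, Klf4, Klf6, Klf9, Klf10, Klf11, Klf13 and Klf16, out of 22208 protein-coding genes of the mouse annotation. A binding location was assigned to one of them if it lay in the gene body or within 50 kb of it. This gave 30 of 10290 final GATA1 locations and 38 of 15209 final TAL1 locations. Binding was mapped by ChIP-exo, chromatin immunoprecipitation in which an exonuclease trims the DNA up to the cross-linked protein, so that each location is a single base position (mm9). The GATA1 libraries came from G1E-ER4 cells after 0, 3 and 24 h of estradiol (3 libraries each), with 1 more from G1E cells. The TAL1 libraries came from G1E-ER4 cells after 0 h (5 libraries), 3 h and 24 h (3 each) and from G1E cells (4). G1E is an erythroid progenitor line of strain 129 that lacks Gata1, and G1E-ER4 is its derivative carrying GATA1 fused to the estrogen binding domain, which estradiol activates (10 nM in the sample labels, while the methods of the study state a higher dose). Each line is a single cultured line, and the GATA1 detected in G1E-ER4 is the fusion protein. The lists pool all libraries of a factor, so no value belongs to a replicate or a time, no test over samples was possible, and the read depth behind a location is unknown. The GATA1 lists pool the G1E-ER4 times by the methods of the study, whereas the labels link the G1E library to them too, which positions alone cannot settle.

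Kruppel-like factors are zinc finger proteins that bind CACCC and related GC-rich elements, and each member activates or represses genes through its own partners. Klf1 is the founding, erythroid member and activates the adult beta-globin gene and many other red cell genes. GATA1 binds WGATAA, where W is A or T. TAL1 is a basic helix-loop-helix protein that binds the E-box with an E protein partner and meets GATA1 in a complex bridged by LMO2 and LDB1.

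The sequence upstream of Klf1 is shown first, because all final locations of Klf1 fall in it. Capitals mark WGATAA and the TG that ends 7 or 8 bp before it, the E-boxes CAGATG and CAGCTG, and CACCC. Each motif is marked on either strand, so TTATCA and CA stand for TGATAA and TG, and CATCTG for CAGATG. The upstream stretch holds 1 GATA1 and 4 TAL1 locations, and the start region holds 1 GATA1 and 2 TAL1 locations. The last 10 bases of the start region belong to the transcript. Both stretches were picked after the locations were known.
Klf1 upstream stretch (chr8:87425037-87425336, plus strand): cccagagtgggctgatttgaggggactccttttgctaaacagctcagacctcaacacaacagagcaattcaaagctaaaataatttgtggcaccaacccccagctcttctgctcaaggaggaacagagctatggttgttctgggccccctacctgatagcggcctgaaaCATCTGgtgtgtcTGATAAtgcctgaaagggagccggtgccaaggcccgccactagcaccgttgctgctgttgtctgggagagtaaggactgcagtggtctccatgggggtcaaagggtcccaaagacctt
Klf1 start region (chr8:87425567-87425836, plus strand): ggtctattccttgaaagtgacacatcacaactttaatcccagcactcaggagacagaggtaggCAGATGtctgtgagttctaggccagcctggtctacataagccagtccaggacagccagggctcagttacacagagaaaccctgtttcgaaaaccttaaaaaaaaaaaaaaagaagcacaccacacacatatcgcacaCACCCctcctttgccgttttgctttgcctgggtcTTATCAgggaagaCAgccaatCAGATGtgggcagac

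Of the cooccupied GATA1 locations at Klf13, the gene with the most locations, 4 were eligible by the rule for sequences (cooccupied, meaning a TAL1 location under 40 bp away, and WGATAA within 40 bp), and they show how far the motif can lie from the location. Each window is centred on the GATA1 location with 45 bp on either side, and capitals mark only WGATAA and the TG before it.
Klf13, 2731 bp upstream (chr7:71086487-71086577, plus strand): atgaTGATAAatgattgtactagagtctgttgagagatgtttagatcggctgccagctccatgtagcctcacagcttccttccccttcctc
Klf13, 17464 bp upstream (chr7:71101220-71101310, minus strand): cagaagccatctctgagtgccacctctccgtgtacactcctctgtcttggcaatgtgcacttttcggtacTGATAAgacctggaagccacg
Klf13, 9690 bp downstream (chr7:71074066-71074156, plus strand): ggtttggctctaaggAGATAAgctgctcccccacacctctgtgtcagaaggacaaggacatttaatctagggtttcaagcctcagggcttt
Klf13, 41873 bp downstream (chr7:71041883-71041973, minus strand): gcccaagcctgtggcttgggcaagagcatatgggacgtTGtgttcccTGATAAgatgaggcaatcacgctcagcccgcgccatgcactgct

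At the other genes with such a location, the one closest to the start of the gene is shown, because these allow the TG spacing to be compared between genes.
Klf2, 41589 bp upstream (chr8:74801298-74801388, minus strand): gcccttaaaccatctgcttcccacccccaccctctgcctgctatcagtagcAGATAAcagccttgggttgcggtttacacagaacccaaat
Klf6, 13581 bp upstream (chr13:5847109-5847199, minus strand): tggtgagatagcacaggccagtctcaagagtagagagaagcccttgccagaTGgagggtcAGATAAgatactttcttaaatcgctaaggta
Klf11, 5334 bp upstream (chr12:25330857-25330947, minus strand): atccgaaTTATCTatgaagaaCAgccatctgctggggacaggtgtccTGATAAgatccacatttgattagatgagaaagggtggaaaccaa
Klf16, 4609 bp downstream (chr10:80035387-80035477, minus strand): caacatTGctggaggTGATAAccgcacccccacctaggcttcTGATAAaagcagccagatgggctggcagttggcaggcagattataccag

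The remaining windows are from genes with no cooccupied location and were picked later. The Klf3 window is centred on a TAL1 location and the others on GATA1 locations.
Klf3, TAL1 location 4914 bp downstream (chr5:65199497-65199587, plus strand): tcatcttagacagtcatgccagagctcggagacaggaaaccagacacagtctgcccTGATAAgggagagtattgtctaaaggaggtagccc
Klf9, 11245 bp downstream (chr19:23226916-23227006, minus strand): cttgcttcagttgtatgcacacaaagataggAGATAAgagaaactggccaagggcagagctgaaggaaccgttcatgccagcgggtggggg
Klf10, 1274 bp upstream (chr15:38231693-38231783, minus strand): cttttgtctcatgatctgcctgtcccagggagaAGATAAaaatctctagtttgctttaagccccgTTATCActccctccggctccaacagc

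GATA1 and TAL1 were found at most of these genes but in very unequal numbers. Klf13 held 14 GATA1 and 11 TAL1 locations, more than any other listed gene. Klf11 had 4 GATA1 and 7 TAL1 locations, and Klf1 had 2 GATA1 and 6 TAL1 locations. Klf16 had 3 GATA1 and 4 TAL1 locations, all but 1 of them cooccupied. Klf6 was richer in GATA1, with 4 locations against 1 of TAL1, and Klf2 and Klf9 each had 1 GATA1 and 4 TAL1 locations. Klf10 had only a GATA1 location, Klf3 only a TAL1 location, and Klf4 neither.

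**Figure D1:**
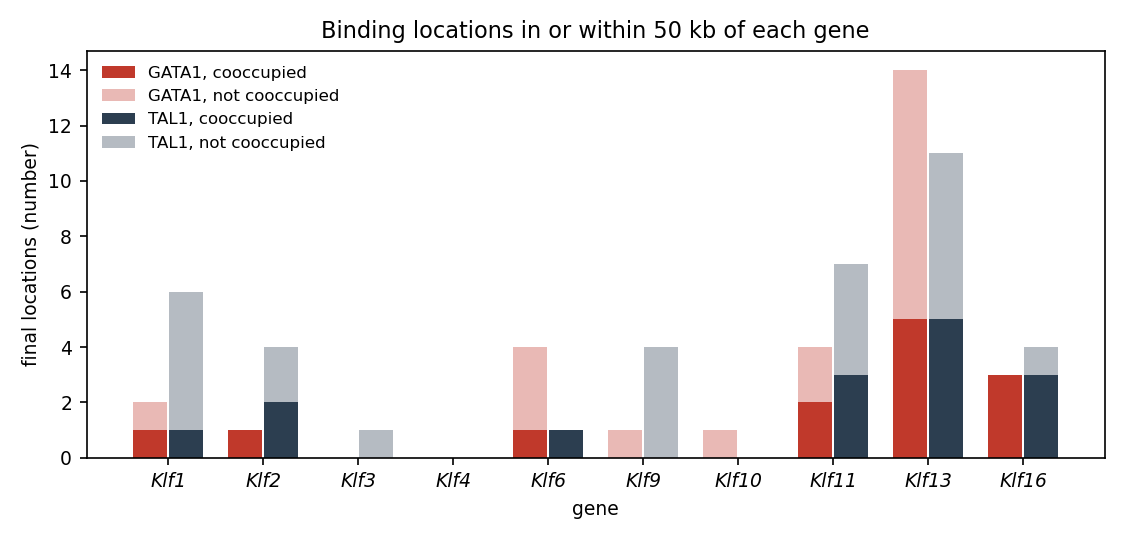
Number of final GATA1 locations (red, left bar) and TAL1 locations (dark, right bar) in or within 50 kb of each gene, with the cooccupied part in full colour and the rest pale. Klf13 stands highest with 14 and 11 locations, and Klf4 has no bar.

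At least 1 GATA1 location was present at 8 of the 10 genes, and 42.7% of all protein-coding genes had one under the same rule. TAL1 was likewise present at 8 of the 10 genes, against 40.3% of all genes. Both factors were present at 7 of the 10 genes, against 33.6% of all genes, and a cooccupied GATA1 location at 6, against 23.6%. Neither factor was present at 1 gene, against 50.7% of all genes. Within 10 kb, 7 of the 10 genes had a GATA1 and 6 a TAL1 location, against 23.9% and 21.3% of all genes. MultiGPS alone, the caller whose locations became final where a peak pair was near, placed GATA1 at 8 genes, against 47.6% of all, and TAL1 at 8, against 44.9%. Peak pairs, the broadest calls, which join a peak on each strand, were at 9 genes for GATA1, against 72.1%, and at 10 for TAL1, against 78%. The genes were listed with earlier results of these data known, so the excess over all genes is a description. The median over the 10 genes was 1.5 GATA1 and 4 TAL1 locations, against 0 of each over all genes, in windows of 109707 bp and 115526 bp (medians).

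Against all genes, the count at Klf13 was uncommon for GATA1 and less so for TAL1. Only 25 genes, or 0.113% of all, had at least 14 GATA1 locations, whereas 2.66% had at least 11 TAL1 locations. Klf13 has a gene body of 52565 bp, the longest of the 10, and per 100 kb of window it had 9.18 GATA1 and 7.21 TAL1 locations. The TAL1 counts of Klf11 and Klf1 were matched or passed by 7.2% and 9.38% of genes. The GATA1 counts of Klf6 and Klf11 were matched or passed by 9.44%. At Klf1 the GATA1 count was common, since 26.0% of genes had at least as many.

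**Figure D2:**
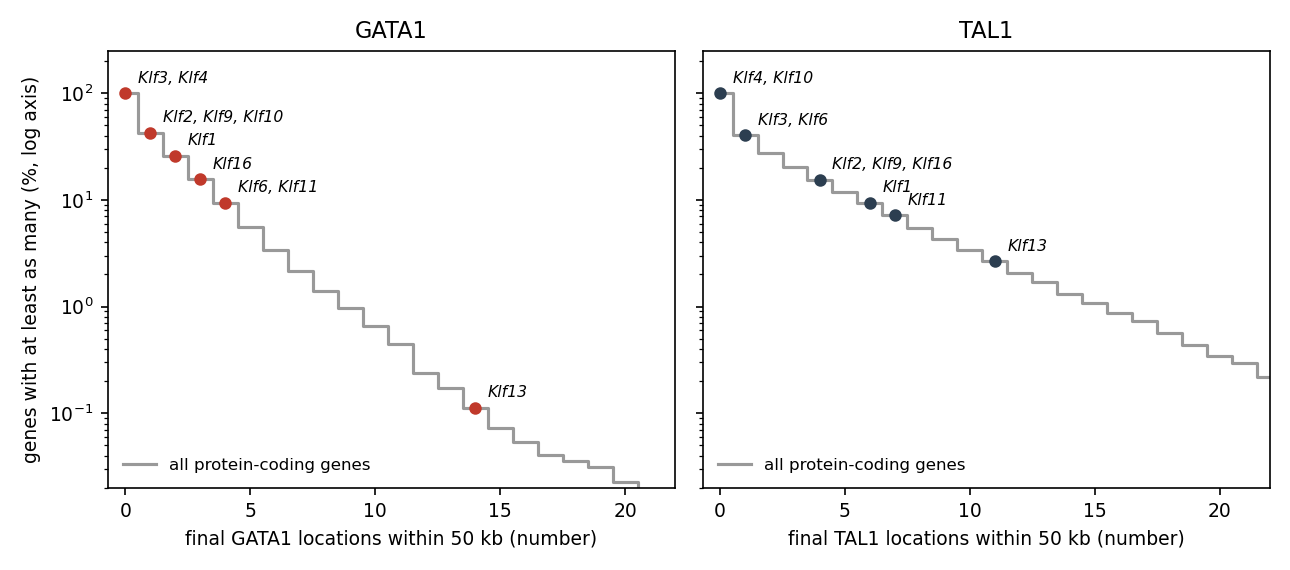
Percentage of protein-coding genes (log axis) with at least the number of final GATA1 (left) or TAL1 (right) locations given on the horizontal axis, with the 10 genes marked as points. Klf13 lies at 0.113% for GATA1 and at 2.66% for TAL1.

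Klf1, the erythroid activator, was bound only close to its start. Its 2 GATA1 locations lay 628 and 13 bp upstream, and its 6 TAL1 locations lay 776, 717, 622, 502, 228 and 72 bp upstream. The TAL1 locations formed a single homotypic cluster, in which neighbours of the same factor are under 500 bp apart, spanning 704 bp with gaps of 59 to 274 bp. GATA1 at 628 bp and TAL1 at 622 bp upstream were 6 bp apart and thus cooccupied. The TGATAA next to them has its TG 7 bp upstream, and that TG is the end of the E-box CATCTG in the stretch shown above. GATA1 and TAL1 lay 22.5 and 16.5 bp upstream of the midpoint of this motif.

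The second GATA1 location of Klf1, at 13 bp from the start, also had TGATAA, 10.5 bp away on the minus strand and again with TG 7 bp before it. The closest TAL1 location was 59 bp away, so this location did not count as cooccupied. That TAL1 location had a single TAL1 peak pair within 100 bp, 85 bp from it. The same peak pair lay 26 bp from the GATA1 location, on its other side. Among the 6 TAL1 locations, only the cooccupied one had WGATAA within 40 bp. An E-box lay within 40 bp of that one and of the one at 228 bp, and CACCC, the type of element that Klf1 itself recognises, within 40 bp of those at 228 and 72 bp. No final location of either factor lay elsewhere in the window, which also holds Farsa, Syce2, Gcdh, Dnase2a, Mast1 and Rtbdn. With 100 kb on either side the counts of Klf1 grew to 7 GATA1 and 13 TAL1 locations.

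**Figure D3:**
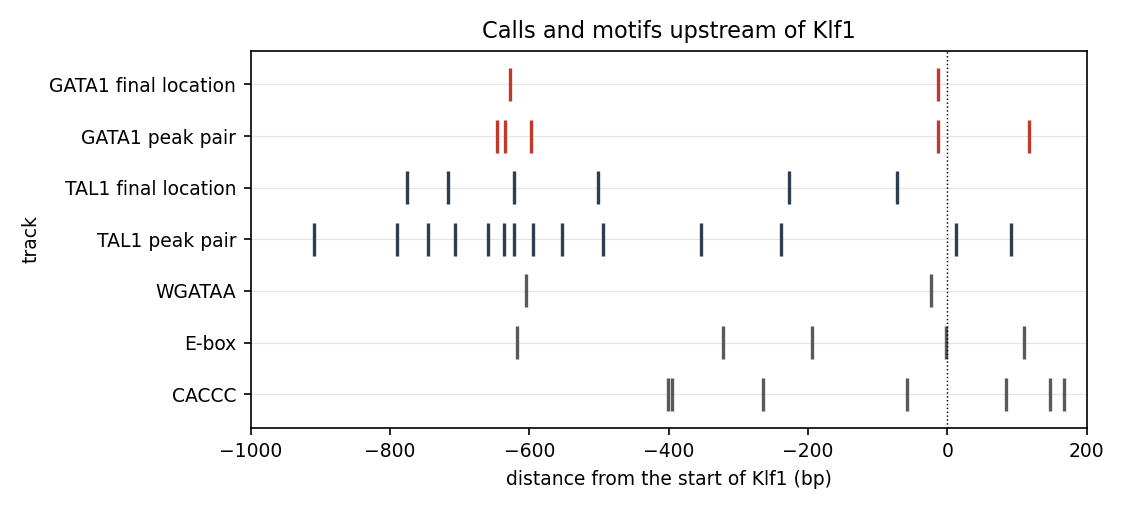
Calls and motifs in the 1 kb before the start of Klf1 and the first bases after it (horizontal axis, bp from the start). Each tick is 1 GATA1 or TAL1 final location, 1 peak pair or 1 motif; the final TAL1 locations run from 776 to 72 bp upstream and a WGATAA lies beside each GATA1 location.

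Klf3, a repressor that recruits CtBP, had a lone TAL1 location 4914 bp downstream of its start, in an intron. It had TGATAA 13.5 bp away, shown above, but the closest GATA1 location was 116763 bp away and the closest GATA1 peak pair 1620 bp away. Klf2, which acts in endothelium and lymphocytes and contributes to embryonic globin expression, had no location within 10 kb. Its GATA1 location lay 41589 bp upstream, in a cluster of 3 TAL1 locations spanning 164 bp, and had TAL1 on either side at 16 and 21 bp. A further TAL1 location lay 35615 bp upstream. The closest start site to all 5 locations was that of Gm10282, 27816 bp from the GATA1 location. Just past the limit of the window, a TAL1 location lay 50405 bp and a GATA1 location 50564 bp from the Klf2 gene body.

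Klf4, a factor of epithelial cells and of reprogramming to pluripotency, was the gene without a location. No GATA1 peak pair and 1 TAL1 peak pair lay in its window, and no final location was added when the window was widened to 100 kb on either side. The window held 109 WGATAA sequences, against 143 in the longer window of Klf13.

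Klf6, a widely expressed factor required for yolk sac blood formation, had GATA1 locations 16250, 13581 and 11021 bp upstream and 3309 bp downstream, the last in an exon. The middle one was cooccupied, with TAL1 3 bp away, and carries AGATAA with TG 7 bp before it. The location at 11021 bp had 3 WGATAA sequences within 40 bp and a TG at the same spacing, yet the closest TAL1 location was 2557 bp away.

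Klf9, a factor induced by thyroid and glucocorticoid hormones, had a GATA1 location in its intron 11245 bp from the start. TAL1 lay 44 bp further along, just outside the 40 bp that defined cooccupancy, and the other TAL1 locations lay 11110 bp upstream and 9081 and 62442 bp downstream. Klf10 and Klf11 are repressors inducible by TGF-beta that recruit Sin3A, and they differed in binding. Klf10 had a GATA1 location 1274 bp upstream with 2 WGATAA sequences within 40 bp. TAL1 peak pairs lay 5, 24 and 43 bp from it, but no TAL1 location was called by MultiGPS in the whole window.

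At Klf11 the TAL1 locations formed 2 clusters upstream of the gene, each with a cooccupied GATA1 location. The distal cluster had 4 TAL1 locations 7258 to 6889 bp upstream, spanning 369 bp, and its GATA1 location at 7151 bp was 3 bp from TAL1. This GATA1 location had no WGATAA within 40 bp, although the related AGATAG or TGATAG lay within that distance. The proximal cluster had 3 TAL1 locations 5371 to 5247 bp upstream, spanning 124 bp. Its GATA1 location at 5334 bp was 9 bp from TAL1, and the window above holds 2 WGATAA sequences there, one with TG 8 bp before it. The other GATA1 locations of Klf11 had no TAL1 location within 1 kb. One was in an exon 642 bp downstream of the start of the gene, but only 117 bp from a further Klf11 start site. The second was 56189 bp downstream, where it lay 681 bp from a start site of Rrm2, the small subunit gene of ribonucleotide reductase.

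**Figure D4:**
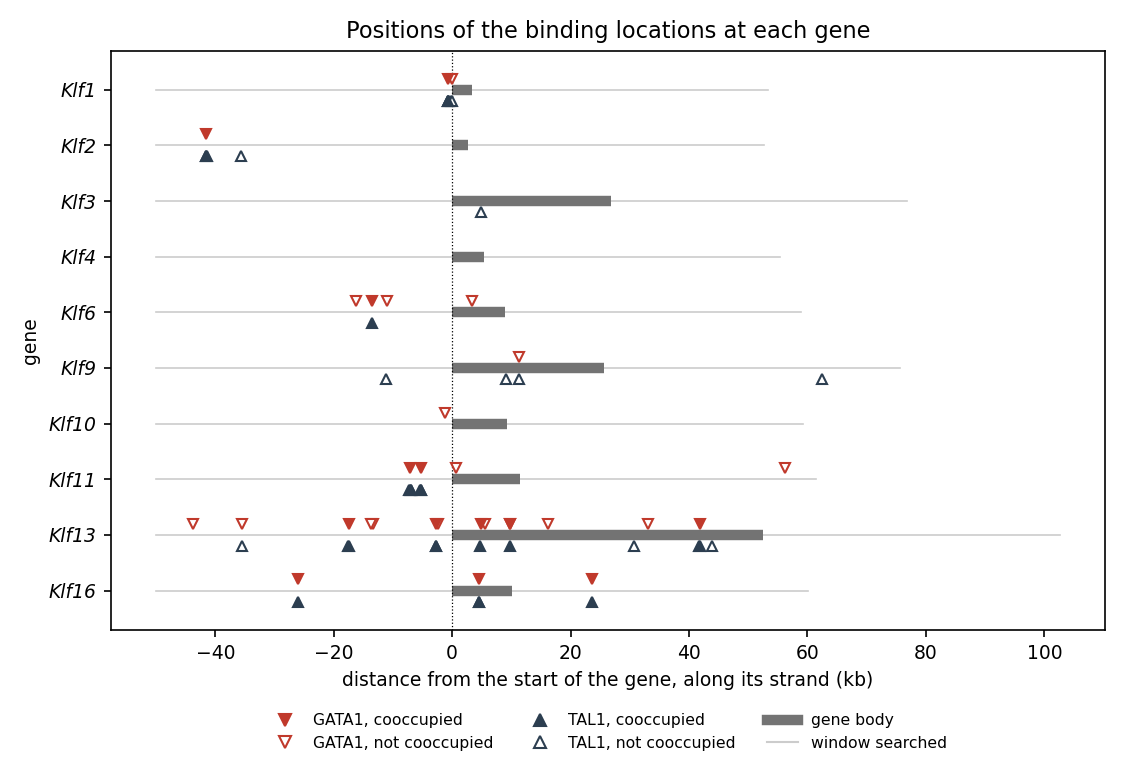
Final GATA1 (upper triangles) and TAL1 (lower triangles) locations by distance from the start of each gene along its strand (kb), filled where cooccupied, with the gene body as a thick bar and the window searched as a thin line. Closely spaced locations overlap in the drawing; those of Klf1 sit at the start, those of Klf2 lie 35615 bp or more upstream, and those of Klf13 spread over the gene body and its upstream side.

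Klf13, a factor active in erythroid maturation and in T cells, was bound throughout its introns and its upstream side. The 14 GATA1 locations ran from 43824 bp upstream to 41873 bp downstream of the start, and the 11 TAL1 locations from 35492 bp upstream to 43955 bp downstream. No other protein-coding gene lay in its window, and a Klf13 start site was the closest to every one of these locations. Klf13 has further start sites inside its body, and the GATA1 location 16127 bp downstream lay 2082 bp from one. WGATAA was within 40 bp of 8 of the 14 GATA1 locations and of 5 of the 11 TAL1 locations. Of the GATA1 locations, 5 were cooccupied, with TAL1 at 5, 14, 14, 14 and 32 bp.

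Klf13 was the only listed gene with homotypic GATA1 clusters. They were 3 pairs, 111, 418 and 353 bp wide, at 9801 to 9690 bp downstream and at 2313 to 2731 bp and 13403 to 13756 bp upstream. It also had 3 TAL1 pairs, with gaps of 90, 92 and 101 bp. The WGATAA sequences of the 4 windows shown above lay 4.5 to 38.5 bp from the GATA1 location. MultiGPS called 2 more TAL1 locations at Klf13 with no TAL1 peak pair within 100 bp, and these lay 2 and 14 bp from GATA1 locations that were not counted as cooccupied. The counts depended on the window, with 9 GATA1 and 8 TAL1 locations within 10 kb and 24 and 22 within 100 kb.

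By the counts of GATA1, TAL1 and cooccupied GATA1 locations, the genes most like Klf13 were Fyb (14, 11 and 4 locations), St6galnac3 (14, 12 and 6) and Exoc6 (13, 10 and 6). Their Euclidean distances from Klf13 in these 3 counts were 1, 1.41 and 1.73. The genes compared were protein-coding genes outside the Kruppel-like and Sp family that did not overlap the window of Klf13.

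Klf16, a repressor of the same branch as Klf9 and Klf13, had all 3 of its GATA1 locations cooccupied, and each had WGATAA with a TG 7 bp before it. One lay in its own intron 4609 bp downstream of the start, with TAL1 at 12 bp. At this location the TG stood before the farther of 2 WGATAA sequences, not before the closest, which was 0.5 bp away. The others lay in neighbouring genes, in an intron of Rexo1 23548 bp downstream and in an intron shared by Scamp4 and Adat3 25998 bp upstream, 412 bp from a Scamp4 start site. Klf16 thus had the highest share of its WGATAA sequences near a GATA1 location, 5 of 59 (8.47%), followed by Klf13 with 9 of 143 (6.29%). Over the 10 windows, 28 of 1129 WGATAA sequences (2.48%) lay within 40 bp of a GATA1 location, against 0.24% in the genome. For TAL1 it was 16 of 1129 (1.42%), against 0.207%. The genome values count WGATAA at any distance from genes, not only in gene windows. As the genes were also listed with earlier results known, both gaps are a description.

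Other members of the family and 2 further families of blood transcription factors were counted the same way, with a location near several genes counted at each. Of the 16 other Kruppel-like and Sp genes, 8 had a GATA1 and 4 a TAL1 location, and 1 had a cooccupied GATA1 location. That gene was Sp2, with 11 GATA1 and 18 TAL1 locations, 5 of the GATA1 locations being cooccupied. Sp1, Sp6 and Sp7 followed with 3 GATA1 locations each and 1, 1 and 0 of TAL1, and Klf17 had 3 TAL1 locations and none of GATA1. Of the 5 Ikaros family genes, 4 had a GATA1 and 5 a TAL1 location, with medians of 4 and 11 locations, and Ikzf2 passed Klf13 with 20 GATA1 and 27 TAL1 locations. Of Runx1, Runx2, Runx3 and Cbfb, 3 had a GATA1 and 1 a TAL1 location. That gene was Runx1, with 13 GATA1 and 19 TAL1 locations, 8 of the GATA1 locations being cooccupied. The windows of Ikzf2 and Runx1 were 254747 and 324600 bp long, against 152565 bp for Klf13. Ikzf2 and Runx1 were named after their values were seen.

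Taken over all 30 GATA1 and 38 TAL1 locations of the 10 genes, the shares with the other factor, in clusters and with each motif had intervals wide enough to hold those of the lists at large. Their place relative to genes is given last, and there some shares did not. Of the GATA1 locations, 13 of 30 were cooccupied (43.3%, 95% exact binomial interval 25.5 to 62.6%), against 35.9% in the rest of the list. Of the TAL1 locations it was 15 of 38 (39.5%, 24 to 56.6%), against 27.4%. The intervals cover counting error only and treat neighbouring locations as independent. The distance between the factors at the 13 cooccupied GATA1 locations was 3 to 34 bp with a median of 14 bp, and 15 bp over the whole list. Each comparison in this paragraph left the value of the rest inside the interval of the Kruppel-like factor genes.

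Clustering separated the factors at these genes, as it did in the whole lists. Of the TAL1 locations, 24 of 38 were in homotypic clusters (63.2%, 46 to 78.2%), against 64.4% in the rest of the list. Of the GATA1 locations, 6 of 30 were (20%, 7.71 to 38.6%), against 13.7%. The 24 TAL1 locations made 8 clusters at 5 genes, Klf1, Klf2, Klf11, Klf13 and Klf16. The gaps between neighbours in them were 37 to 274 bp with a median of 98 bp, against 92 bp over the whole TAL1 list. A TAL1 location had on average 2.55 TAL1 peak pairs within 100 bp, against 3.24 over the whole list, and a GATA1 location had 2 GATA1 peak pairs, against 2.13.

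WGATAA lay within 40 bp of 21 of 30 GATA1 locations (70%, 50.6 to 85.3%), against 67.7% in the rest of the list. In windows moved by 1 kb it lay in 8.33% and 8.66%. Of the TAL1 locations, 17 of 38 had it (44.7%, 28.6 to 61.7%), against 47.2%, and moved windows had it in 3.95% and 8.65%. At TAL1 locations the motif went with GATA1: 13 of 15 cooccupied locations had it (86.7%), against 4 of 23 of the others (17.4%, 4.95 to 38.8%). In the rest of the list these shares were 70.7% and 38.3%. Where locations of the same cluster share a motif they share its count.

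**Figure D5:**
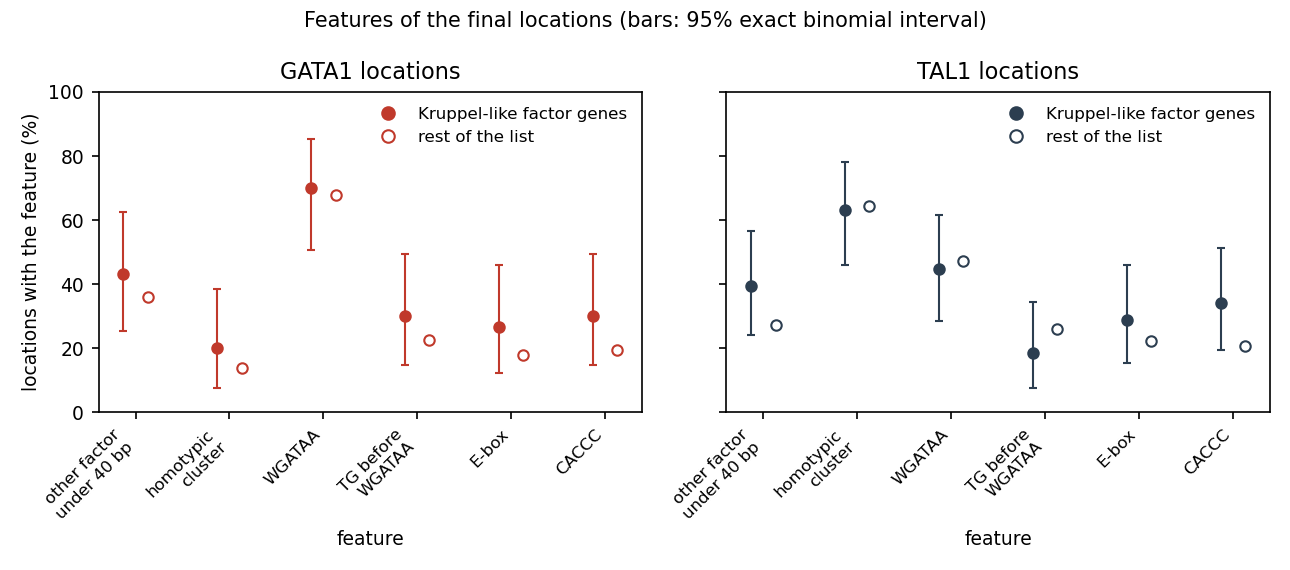
Share of final GATA1 (left) and TAL1 (right) locations with each feature, for the Kruppel-like factor genes (filled) and the rest of each list (open), with 95% exact binomial intervals. For GATA1 the share with WGATAA is 70% and 67.7%, and for TAL1 the share in homotypic clusters is 63.2% and 64.4%; each open point of the rest lies within the interval of the filled point beside it.

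A TG 7 or 8 bp before WGATAA was present at 7 of the 11 cooccupied GATA1 locations with the motif (63.6%, 30.8 to 89.1%), and at 50.9% of those in the rest of the list. Of the 10 with the motif but not cooccupied, 2 had it (20%, 2.52 to 55.6%), against 22.5% in the rest. Those 2 were the start location of Klf1 and the location 11021 bp upstream of Klf6. Counted at TAL1 locations with WGATAA, 6 of 13 cooccupied ones had the TG (46.2%) and 1 of 4 others (25%). In the rest of the TAL1 list these shares were 53.1% and 56%, so there the TG did not separate cooccupied from other TAL1 locations. Of all TAL1 locations at the 10 genes, 7 of 38 had it (18.4%, 7.74 to 34.3%), against 25.9%. At the cooccupied GATA1 locations of Klf1, Klf6, Klf13 (41873 bp downstream) and Klf16 the gap was 7 bp, and at that of Klf11 it was 8 bp. Any WGATAA within 40 bp of the location was counted. At Klf11 (5334 bp upstream) and Klf16 (4609 bp downstream) the TG stood before the farther of 2 WGATAA sequences.

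Offsets were taken from the WGATAA closest to the GATA1 location, whether or not a TG stood before it. Along its strand, TAL1 lay upstream of the WGATAA midpoint at 8 of the 11 cooccupied locations with the motif (72.7%), against 67.5% of 2677 in the whole list. The medians were 4.5 bp upstream for GATA1 and 16.5 bp upstream for TAL1, against 5.5 and 12.5 bp in the whole list. Taking the TAL1 location closest to GATA1, the exceptions were Klf2 and 2 locations of Klf13. TAL1 lay 7.5 bp downstream at Klf2, and 13.5 and 24.5 bp downstream at the Klf13 locations. The other cooccupied TAL1 location of Klf2 lay 29.5 bp upstream of the same motif. At these 2 Klf13 locations GATA1 was downstream of the motif as well, by 27.5 and 38.5 bp. Since the GATA1 median was upstream too, the share upstream of the motif does not set TAL1 apart from GATA1. Relative to GATA1 itself, TAL1 lay upstream at 8 of the 11 locations (72.7%), against 55.4% in the whole list. At the cooccupied location of Klf1 it was TAL1 that lay closer to the motif.

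An E-box was within 40 bp of 8 of 30 GATA1 locations (26.7%, 12.3 to 45.9%), against 17.9% in the rest of the list, and of 11 of 38 TAL1 locations (28.9%, 15.4 to 45.9%), against 22.3%. CACCC was within 40 bp of 9 of 30 GATA1 locations (30%, 14.7 to 49.4%), against 19.3%, and of 13 of 38 TAL1 locations (34.2%, 19.6 to 51.4%), against 20.6%. Windows moved by 1 kb at the same genes had CACCC in 25% for either factor, against 16.4% of moved GATA1 and 16.6% of moved TAL1 windows in the rest of the lists.

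Relative to gene structure, the TAL1 locations at these genes lay outside genes more often, and in introns less often, than those of the whole list. The GATA1 locations had the same order of shares. Of the GATA1 locations, 17 of 30 lay outside genes (56.7%, 37.4 to 74.5%), against 39.9% in the whole list, and 11 in introns (36.7%, 19.9 to 56.1%), against 55.2%. The other 2 lay in exons of Klf6 and Klf11 (6.67%, against 4.86%). Of the TAL1 locations, 25 of 38 lay outside genes (65.8%, 48.6 to 80.4%), against 42.5%, and 13 in introns (34.2%, 19.6 to 51.4%), against 52.5%. For TAL1 both values of the whole list were outside the interval, and for GATA1 both were inside it. The intervals treat neighbouring locations as independent. Yet the TAL1 clusters of Klf1 (6 locations), Klf11 (4 and 3) and Klf2 (3) each lay wholly outside genes. The TAL1 intervals therefore cannot show a difference beyond counting error. None of the TAL1 locations, 0 of 38, lay in an exon (interval up to 9.25%, against 5% in the whole list). Within 1 kb of a start site were 5 GATA1 locations (16.7%, 5.64 to 34.7%), against 10.4% in the whole list, and 7 TAL1 locations (18.4%, 7.74 to 34.3%), against 7.46%. The TAL1 value of the whole list was again below the interval, and of these 7 TAL1 locations, 6 were those of Klf1 and 1 was beside Scamp4. The median distance to the closest start site was 5472 bp for GATA1, against 13339 bp in the whole list, and 7069 bp for TAL1, against 15831 bp. The rule itself kept only locations in or within 50 kb of a listed gene, and the longest body was 52565 bp. The shares outside genes and in introns, and these distances, thus depend on the windows and are a description. The closest start site was that of the listed gene for 26 of 30 GATA1 and 32 of 38 TAL1 locations.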

How the data were processed

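The authors deposited 6 lists of positions, 3 per factor, with no score or count. These are the peak pairs, the MultiGPS locations and the final list, made of MultiGPS locations near a peak pair. By the submitters' processing notes, reads were base called with CASAVA 1.7 or bcl2fastq 2.15 and aligned to mm9 with Bowtie 1.00 or BWA 0.6.2 and 0.7.9a. By the study's methods, unique reads of merged replicates were kept, peaks called by GeneTrack were paired, and MultiGPS locations exceeded input by more than 2-fold at a q-value under 0.05. Pooling removed any view of replicates or times.

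All positions lay inside the chromosomes of the mm9 genome used. Genes were the 22208 protein-coding names of GENCODE vM1 on 20 chromosomes. Distances upstream and downstream were taken from the start of the gene body, although some genes have further start sites inside it. Motifs were matched as exact strings on both strands (AGATAA or TGATAA for the GATA motif, CAGATG or CAGCTG for the E-box, and CACCC), with the motif midpoint at most 40 bp away. Shares have Clopper-Pearson intervals at 95%, and no test was run. The genes, comparison families and definitions were chosen with earlier results of these data known. Named were all 10 genes, of the rest of the family the top 3 per factor with ties, the 3 genes most like the one with most locations, and neighbours with the closest start site; other genes named were picked later. Sequence windows took 45 bp per side, not the planned 30 bp, so that motifs were shown whole. Alternatives varied the window, the list and each distance. The counting functions were tested on simulated data. Sequences were read with samtools 1.23.1 and pysam 0.24.0, tables with pandas 2.3.3 and numpy 2.4.6, intervals came from scipy 1.17.1 and plots from matplotlib 3.10.9, under Python 3.11.15.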

Additional observations from a re-analysis of the deposited data

How the results depend on the processing

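The counts depended on the window and on the list. The 30 GATA1 locations became 18 within 10 kb, 47 within 100 kb, 94 as peak pairs and 70 with peak pairs merged within 40 bp. The 38 TAL1 locations became 69 within 100 kb, 131 as peak pairs and 111 as merged pairs. With the motif at most 20 bp away, WGATAA was at 50% of GATA1 and 23.7% of TAL1 locations, since fewer bases were searched. Under 250 bp, 6.67% of GATA1 locations were in clusters, and under 100 bp, 60.5% of TAL1 locations were cooccupied. The other settings tried, among them all MultiGPS locations (35 and 42), the closest start site (26 and 32) and a peak pair at most 20 bp away (24 and 26), kept the counts of locations within 1.5-fold and the shares inside their intervals. Of the 20 counts per gene and factor, 8 moved by more than 1.5-fold within 10 kb, 8 within 100 kb and 2 with all MultiGPS locations. No paired analysis was possible because the lists hold no replicate, and for the same reason no replicate could be left out. A location just under the callers' thresholds is not in any list. A count of 0, as at Klf4, thus says only that none was called, and the lists give no reads there.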

Other observations

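The calls of only one method add some positions at these genes. Of the MultiGPS locations in the windows, 5 of 35 for GATA1 and 4 of 42 for TAL1 had no peak pair within 100 bp and were not final. Final were thus 30 of 35 and 38 of 42, against 10290 of 12781 and 15209 of 17639 in the whole lists. In introns of Syce2, a meiotic gene beside Klf1, 1 GATA1 location lay 27336 bp and 1 TAL1 location 24191 bp upstream of the Klf1 start. A GATA1 location 1545 bp downstream of the Klf16 start, in its intron, and a TAL1 location 14880 bp downstream of the Klf9 start, in its intron, were of the same kind. Of the peak pairs in the windows, 35 of 94 for GATA1 and 63 of 131 for TAL1 lay at no MultiGPS location, against 25159 of 46666 and 31730 of 63546 in the whole lists. All 7 TAL1 peak pairs of Klf10 were among these.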
